A study of Mus musculus with 6 samples.

Results

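The genes described here are 10 of the 13 protein genes carried by the mitochondrial chromosome of the mouse, measured in infarcted mouse hearts under LGK-974 or DMSO. They were chosen by name: mt-Nd1, mt-Nd2, mt-Nd4, mt-Nd5 and mt-Nd6 of complex I, mt-Cytb of complex III, mt-Co1, mt-Co2 and mt-Co3 of complex IV, and mt-Atp6 of complex V. They are 10 of 36047 genes to which the deposited transcripts could be joined, and 10 of the 20094 genes tested. The 3 protein genes not among them, mt-Nd3, mt-Nd4l and mt-Atp8, entered the sum of mitochondrial counts. The mitochondrial rRNA and tRNA genes were not analysed here.

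In every library the 10 genes together held between 26.9 and 51.2% of all estimated counts, and no difference between the treatments was found for any of them. The spread lay within the LGK-974 group, which held both the library with the highest and the library with the lowest share of all 10 genes. The proportions of the genes to each other varied far less than their sum, with the exception of mt-Co2 and mt-Co3, and of these mt-Co2 shared its counts with a copy of its sequence on chromosome 1.

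Female C57BL/6 mice (strain C57BL6 and age 12 weeks in the labels) underwent ischemia/reperfusion (I/R), in which the left anterior descending artery is closed and then reopened. 3 mice received LGK-974 by daily oral gavage and 3 received DMSO, the solvent. LGK-974 (LGK974 in the labels) inhibits Porcupine, the enzyme that adds a lipid to Wnt proteins and without which they are not secreted. RNA of the infarct area, taken 48 h after I/R, was sequenced from 1 mouse per library, with depletion of ribosomal RNA and a capture kit both named in the labels. The tissue is a mixture of cardiomyocytes, fibroblasts, endothelial cells and leukocytes, so fewer cells of a type and less RNA per cell cannot be told apart.

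The respiratory chain of the inner mitochondrial membrane passes electrons from NADH and succinate to oxygen and pumps protons, and ATP synthase (complex V) uses the proton gradient to make ATP. Most of its subunits are encoded in the nucleus and imported, but the membrane core of complexes I, III, IV and V is encoded by mitochondrial DNA, which is transcribed from both strands into long RNAs that are cut into single messages. Complex II has no mitochondrially encoded subunit. Cardiomyocytes are packed with mitochondria, and in heart RNA these messages are among the most abundant.

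All 10 genes lie on the mitochondrial chromosome of GRCm38, each as a single exon annotated as protein-coding. Of these, 9 lie on the plus strand, in the order mt-Nd1 (chrM:2751-3707), mt-Nd2 (chrM:3914-4951), mt-Co1 (chrM:5328-6872), mt-Co2 (chrM:7013-7696), mt-Atp6 (chrM:7927-8607), mt-Co3 (chrM:8607-9390), mt-Nd4 (chrM:10167-11544), mt-Nd5 (chrM:11742-13565) and mt-Cytb (chrM:14145-15288). mt-Nd6 (chrM:13552-14070) alone is encoded on the minus strand. A stretch of nuclear chromosome 1, chr1:24611535-24616197 on the minus strand, carries 7 annotated pseudogenes that repeat mitochondrial genes at 99.7 to 100% identity over the aligned bases, and 5 of them repeat members of the 10. Their transcripts are in the deposited files beside the mitochondrial ones, so a read that lies within a shared stretch could be given to either.

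The ends of these genes are shown because they hold the few letters that separate gene and copy. Sequences are from the GENCODE transcripts of GRCm38, 5′ to 3′ on the strand of each gene. For mt-Co2 the copy is Gm28661, which repeats positions 1 to 681 of the 684 bases of the gene without a difference, and the capitals mark the 3 bases that the copy lacks.
mt-Co2, chrM:7577-7696: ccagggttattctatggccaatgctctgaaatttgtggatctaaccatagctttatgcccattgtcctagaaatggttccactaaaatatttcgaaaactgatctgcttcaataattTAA
Gm28661, chr1:24614885-24615001: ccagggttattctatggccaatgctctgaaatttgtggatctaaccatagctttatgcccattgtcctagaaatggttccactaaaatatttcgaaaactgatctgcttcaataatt

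For mt-Co3 the copy is Gm28437, which lacks the last base, and for mt-Atp6 it is Gm10925, which lacks the last 3. Capitals again mark what the copy lacks.
mt-Co3, chrM:9333-9390: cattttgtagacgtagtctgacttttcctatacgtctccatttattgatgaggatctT
Gm28437, chr1:24613189-24613245: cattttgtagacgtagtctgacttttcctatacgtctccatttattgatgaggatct
mt-Atp6, chrM:8548-8607: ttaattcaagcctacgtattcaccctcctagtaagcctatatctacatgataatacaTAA
Gm10925, chr1:24613974-24614030: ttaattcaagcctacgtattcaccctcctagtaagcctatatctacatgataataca

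For mt-Co1 the copy Gm29216 repeats the gene from position 1054 to its end at position 1545, and the 6 bases that differ all lie between positions 1056 and 1066. Counted from the 5′ end of mt-Co1, with the base of the gene first, they are T1056A, C1057T, A1059G, A1060G, C1062A and A1066T, in capitals here.
mt-Co1, chrM:6381-6440: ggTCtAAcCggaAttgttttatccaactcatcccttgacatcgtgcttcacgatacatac
Gm29216, chr1:24616138-24616197: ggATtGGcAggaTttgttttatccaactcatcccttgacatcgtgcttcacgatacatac

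The copy of mt-Nd4, Gm28439, repeats its first 876 of 1378 bases without a difference and held 0 counts in all 6 libraries. The other copies on chromosome 1, Gm10222 of mt-Nd4l and Gm28438 of mt-Nd3, belong to genes outside the 10. Gm28438 differs from mt-Nd3 by T3C, counted from the 5′ end of the gene.
mt-Nd3, chrM:9459-9498: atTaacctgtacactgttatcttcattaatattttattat
Gm28438, chr1:24613080-24613119: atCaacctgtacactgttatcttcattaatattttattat

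Genes of the mitochondrial chromosome also overlap each other, and 2 overlaps are shown since the positions inside them belong to both genes. mt-Atp8 and mt-Atp6 share 43 bases on the same strand (chrM:7927-7969), in capitals here.
mt-Atp8, chrM:7907-7969: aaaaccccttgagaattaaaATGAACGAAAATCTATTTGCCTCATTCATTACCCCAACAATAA
mt-Atp6, chrM:7927-7989: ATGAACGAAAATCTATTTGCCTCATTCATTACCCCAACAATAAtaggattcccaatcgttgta

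mt-Nd5 and mt-Nd6 end on opposite strands and share 14 base pairs (chrM:13552-13565), in capitals as each strand reads them. Whether the authors counted by strand was not given in the sources used here, so RNA antisense to mt-Nd6 could be counted with it.
mt-Nd5, chrM:13526-13565: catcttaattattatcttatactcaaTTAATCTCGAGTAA
mt-Nd6, chrM:13552-13591: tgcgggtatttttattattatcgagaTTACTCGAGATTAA

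The libraries held 41579787 to 80398211 estimated counts each, so counting error was small beside the spread between mice for genes at this level. DMSO replicate 1 stood apart in 2013 genes of sensory receptor families (olfactory, vomeronasal and bitter taste receptors). Of these, 98.1% had counts there, against 48.6 to 79.7% in the other libraries. Which of them heart tissue uses was not tested. The 15 cardiomyocyte markers, which include Myh6 and Tnnt2, held 4.31 to 7.04% of all counts. Values without DMSO replicate 1 are given beside the main results on the 10 genes and beside the lists whose direction changed.

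As a sum, the 10 genes held 41.3, 51.2 and 26.9% of all counts in LGK-974 replicates 1, 2 and 3, and 37.6, 40.3 and 40.8% in DMSO replicates 1, 2 and 3. As deposited, the DMSO libraries lay close together, and the LGK-974 libraries lay above, above and below all of them. With the chromosome 1 copies added, LGK-974 replicate 1 (41.4%) lay below DMSO replicate 3 (42.2%). The means were 39.8 ± 12.2% under LGK-974 and 39.6 ± 1.73% under DMSO (SD, n = 3 mice each), which did not differ by an exact two-sided permutation test (p = 0.9, where 0.1 is the smallest p that 3 against 3 can give). With the difference at 0.24 percentage points, leaving out LGK-974 replicate 3 moved it to 6.69, LGK-974 replicate 2 to −5.46, LGK-974 replicate 1 to −0.515 and DMSO replicate 1 to −0.754. As shares of TPM the difference was 3.12 percentage points (exact permutation p = 0.5).

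For every one of the 10 genes, the highest share of all counts was in LGK-974 replicate 2 and the lowest in LGK-974 replicate 3, both as deposited and with the counts of the chromosome 1 copies added. With LGK-974 replicate 2 the highest and replicate 3 the lowest, the DMSO libraries lay inside the range of the LGK-974 libraries for all 10 genes.

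**Figure D1:**
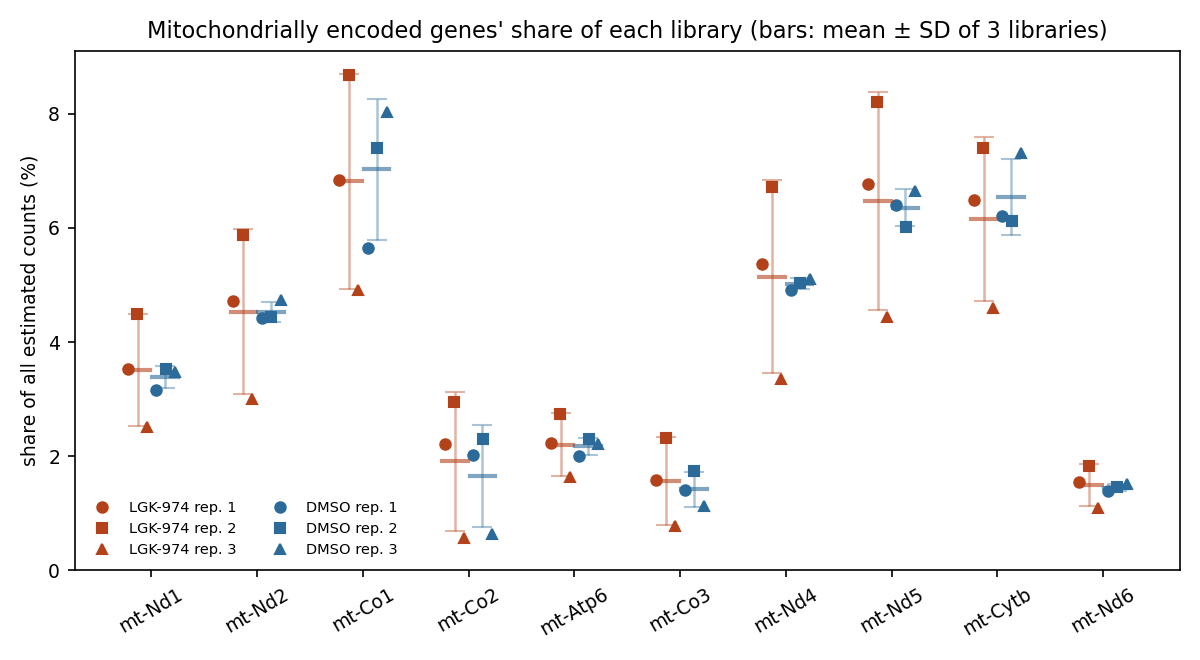
Share of all estimated counts (%) held by each of the 10 mitochondrially encoded genes in the 3 LGK-974 (red) and 3 DMSO (blue) libraries, in the order of the genes along the chromosome with mt-Nd6 of the other strand last. Symbols are single libraries and the bars give the mean ± SD of 3. The red square (LGK-974 replicate 2) is highest and the red triangle (LGK-974 replicate 3) lowest for all 10 genes.

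The 5 genes of complex I, which accepts electrons from NADH, encode membrane subunits of its proton-pumping arm. mt-Nd1 held 3.52, 4.49 and 2.52% of all counts in the 3 LGK-974 libraries and 3.17, 3.52 and 3.47% in the 3 DMSO libraries. mt-Nd2 held 4.72, 5.87 and 3.0% under LGK-974 and 4.41, 4.43 and 4.73% under DMSO. For both genes the LGK-974 libraries enclosed the DMSO libraries.

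mt-Nd4 held 5.37, 6.71 and 3.35% of all counts under LGK-974 and 4.92, 5.04 and 5.11% under DMSO. mt-Nd5, the longest of the 10 at 1824 bases, held 6.78, 8.20 and 4.44% under LGK-974 and 6.40, 6.02 and 6.65% under DMSO. The DMSO values of mt-Nd4 had an SD of 0.0991 percentage points, against 1.69 under LGK-974. mt-Nd6, on the opposite strand, held 1.55, 1.83 and 1.10% under LGK-974 and 1.39, 1.46 and 1.51% under DMSO, in the same order of libraries as the genes of the plus strand under LGK-974.

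mt-Cytb encodes cytochrome b, the one mitochondrially encoded subunit of complex III, which passes electrons on to cytochrome c. It held 6.50, 7.40 and 4.59% of all counts under LGK-974 and 6.20, 6.13 and 7.31% under DMSO. DMSO replicate 3 nearly reached LGK-974 replicate 2 here, unlike in the genes of complex I.

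The 3 genes of complex IV, the oxidase that reduces oxygen to water, did not move alike. mt-Co1, the catalytic subunit with the heme and copper centre that binds oxygen, held 6.85, 8.68 and 4.92% under LGK-974 and 5.65, 7.40 and 8.03% under DMSO. mt-Co2, the subunit that takes electrons from cytochrome c, held 2.22, 2.95 and 0.573% as deposited under LGK-974 and 2.03, 2.31 and 0.637% under DMSO. mt-Co3 held 1.59, 2.33 and 0.788% under LGK-974 and 1.42, 1.74 and 1.13% under DMSO. In mt-Co2 and mt-Co3, but not in mt-Co1, DMSO replicate 3 was the lowest of the DMSO libraries.

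mt-Atp6 encodes the subunit of ATP synthase that forms the proton channel beside the rotating ring. It held 2.23, 2.74 and 1.63% of all counts under LGK-974 and 2.01, 2.30 and 2.22% under DMSO. The overlapping neighbour mt-Atp8, a small subunit of the same enzyme, had 0.135 to 0.176 counts for each count of mt-Atp6 over the 6 libraries.

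In the test across all 20094 genes, edgeR's quasi-likelihood test with TMM scaling and Benjamini-Hochberg adjustment, 0 of the 10 genes had an adjusted p under 0.05. No gene passed over the whole table either (0% called, lowest adjusted p 0.368), so 0 of 10 equals the background. At an unadjusted p under 0.05 the table held 1257 genes higher (6.26%) and 1442 lower (7.18%) under LGK-974, and none of the 10 was among them. DESeq2 called 337 of the 14632 genes to which it gave an adjusted p (2.3%), and 0 of the 10.

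All 10 genes overlapped between the groups on the scale of normalised counts (CPM, counts scaled to library size with TMM factors). Over the table, every LGK-974 library lay above every DMSO library in 10.7% of genes and below in 7.27%. Of the 10 log2 fold changes, 8 were negative and 2 positive, from −0.19 to 0.18, with a median of −0.06 beside −0.13 over all tested genes. Their standard errors ran from 0.458 to 0.808 and their adjusted p (edgeR) from 0.876 to 0.979.

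The gene with the lowest p was mt-Cytb, at 61884 ± 28852 CPM under LGK-974 and 70580 ± 7878 CPM under DMSO (SD, n = 3 each). Its change on the log2 scale was −0.19 (95% interval −1.45 to 1.07, edgeR). The interval of the smallest fold change, that of mt-Nd1 at −0.03, ran from −1.23 to 1.16, and that of mt-Nd6, the narrowest, from −1.12 to 1.01. Changes of more than 2-fold in either direction thus remained inside the interval of each of these genes.

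Single libraries set the sign of the fold changes. Without LGK-974 replicate 3, all 10 were positive, from 0.17 to 0.73, and without LGK-974 replicate 2 all 10 were negative, from −0.51 to −0.39. Without DMSO replicate 1, 7 were positive and 3 negative, from −0.16 to 0.50. The lowest adjusted p of any of the 10 in any of the 14 fits was 0.711 (edgeR).

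**Figure D2:**
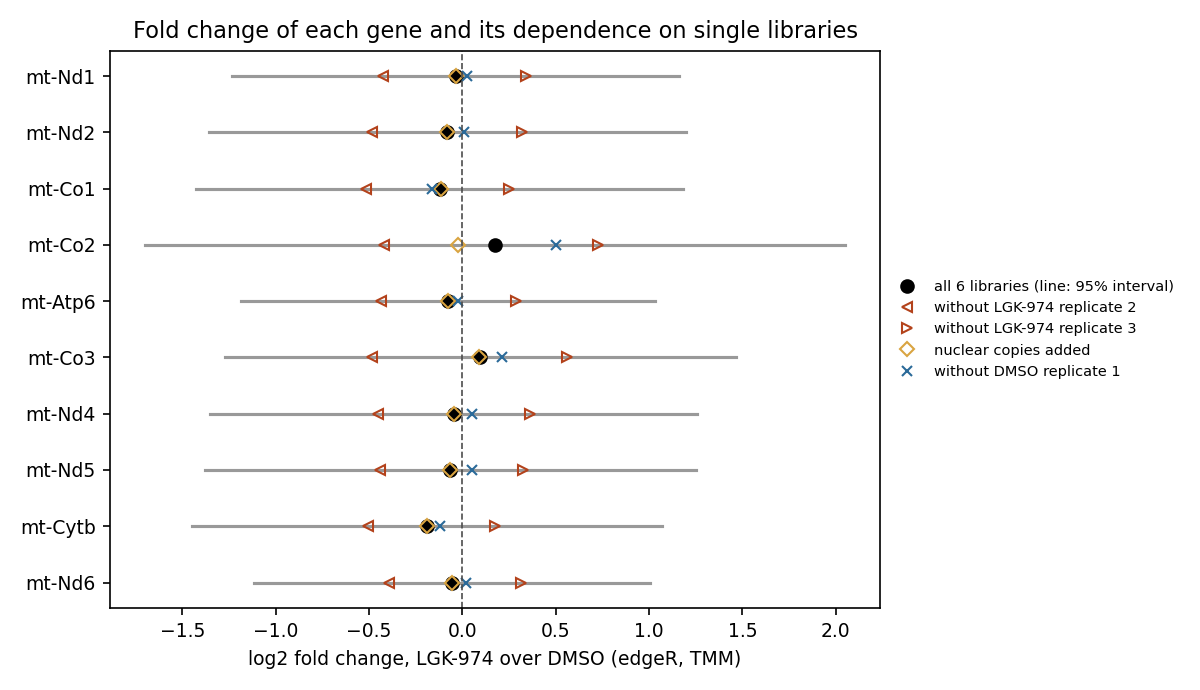
Log2 fold change (LGK-974 over DMSO, edgeR with TMM scaling) of each of the 10 genes. Black points with grey 95% intervals use all 6 libraries, and the other symbols show fits without one library or with the chromosome 1 copies added. All intervals span 0, and the triangles lie on opposite sides of 0 for all 10 genes.

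Setting each gene against the sum of the 13 mitochondrial protein genes takes the size of that sum out of its share. Whether the shares still varied with the sum was not tested. On this scale mt-Nd4 made up 12.4, 12.5 and 11.9% of mitochondrial counts under LGK-974 and 12.5, 12.0 and 12.0% under DMSO. mt-Nd2 made up 10.9, 11.0 and 10.7% under LGK-974 and 11.3, 10.5 and 11.1% under DMSO. These were the most even of the 10, with a coefficient of variation over the 6 libraries of 2.41% for mt-Nd4 and 2.45% for mt-Nd2.

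mt-Nd1, mt-Nd5, mt-Nd6 and mt-Atp6 followed with coefficients of variation from 3.95 to 5.27%. mt-Cytb (7.94%) and mt-Co1 (9.31%) varied more. mt-Cytb made up 15.0, 13.8 and 16.4% under LGK-974 and 15.8, 14.6 and 17.2% under DMSO, and in both groups replicate 3 was highest. mt-Co1 made up 15.8, 16.2 and 17.5% under LGK-974 and 14.4, 17.6 and 18.8% under DMSO, again with replicate 3 highest in both groups.

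mt-Co3 (19.4%) and mt-Co2 (44.7%) were the least even. mt-Co3 made up 3.68, 4.34 and 2.81% of mitochondrial counts under LGK-974 and 3.61, 4.13 and 2.64% under DMSO. mt-Co2 made up 5.13, 5.51 and 2.04% under LGK-974 and 5.18, 5.48 and 1.49% under DMSO. In both genes the lowest libraries of the 6 were LGK-974 replicate 3 and DMSO replicate 3.

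The low values of mt-Co2 stood beside counts on its copy. Gm28661 held 0 counts in replicates 1 and 2 of both groups, 401244 counts in LGK-974 replicate 3 and 583256 in DMSO replicate 3. There it held 60.3 and 68.8% of the counts of gene and copy together. With the copy added, mt-Co2 made up 5.10, 5.46 and 4.97% of mitochondrial counts under LGK-974 and 5.15, 5.44 and 4.62% under DMSO, and its coefficient of variation was 6.11%.

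With the copies added, the log2 fold change of mt-Co2 went from 0.18 (standard error 0.808) to −0.02, so the sign of the deposited value is not that of gene and copy together. The sequences of mt-Co2 and Gm28661 shown above leave 3 bases by which a read could be assigned, and whether the counts on Gm28661 came from the nuclear locus was not tested.

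**Figure D3:**
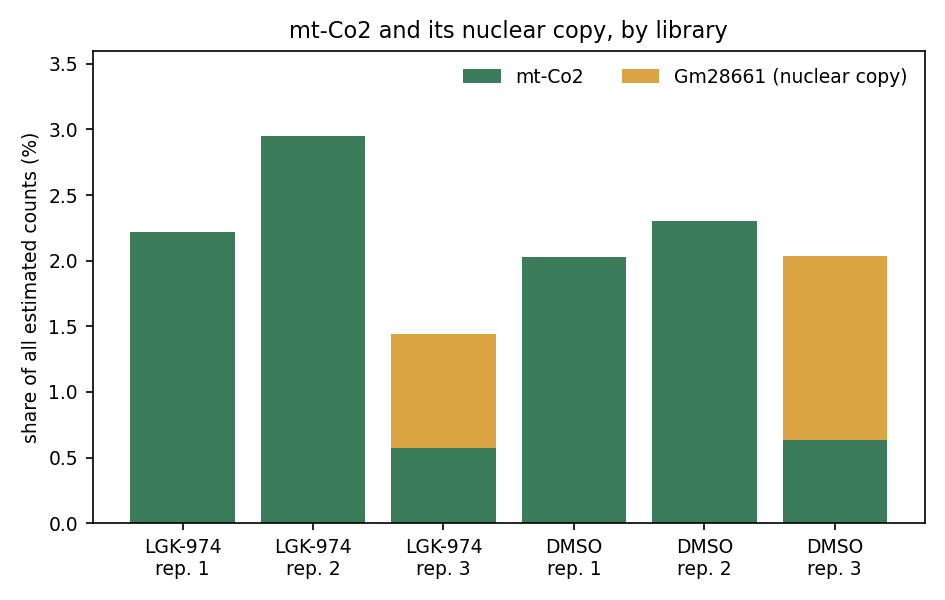
Share of all estimated counts (%) given to mt-Co2 (green) and to its chromosome 1 copy Gm28661 (yellow, stacked) in each of the 6 libraries. The copy has counts in replicate 3 of both groups alone, and the stacked height there is 1.44% in LGK-974 replicate 3 and 2.04% in DMSO replicate 3.

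The other copies took smaller parts. Gm28437 held 0.368% of the counts of mt-Co3 and copy in LGK-974 replicate 3, 2.20% in DMSO replicate 3 and none elsewhere. With it added, mt-Co3 made up 2.73 and 2.61% of mitochondrial counts in the replicate 3 libraries and 3.59 to 4.31% in the other 4, so the low values of mt-Co3 remained. Gm29216 held 0.0287 to 0.932% of the counts of mt-Co1 and copy, and Gm10925 of mt-Atp6 held 0 counts in all libraries.

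mt-Nd3, outside the 10, shared with Gm28438 to a larger extent, with 35.2 to 37.8% of the pair on the copy in replicates 1 and 2 of both groups, 11.6% in LGK-974 replicate 3 and 20.4% in DMSO replicate 3. Gene and copy together made up 1.32, 1.68 and 0.649% of mitochondrial counts under LGK-974 and 1.30, 1.38 and 0.575% under DMSO. Replicate 3 of both groups was thus low in mt-Nd3 as in mt-Co3, with or without the copy. A further 14 nuclear transcripts with 87.0 to 97.6% identity held at most 0.0104% of all counts in any library.

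The LGK-974 and DMSO libraries overlapped in the share of mitochondrial counts of every gene. The exact permutation test could not have called a difference at 0.05, since 3 against 3 allow no p under 0.1. The smallest exact permutation p was 0.2, for mt-Nd1, at 8.50 ± 0.423% under LGK-974 and 8.20 ± 0.150% under DMSO (SD, n = 3 each), and the difference of 0.307 percentage points ran from 0.0720 to 0.481 with each library left out in turn. By complex, complex I made up 50.9 ± 0.396% of mitochondrial counts under LGK-974 and 50.3 ± 1.58% under DMSO. Complex III made up 15.1 ± 1.27 and 15.8 ± 1.30%, complex IV 24.4 ± 1.86 and 24.5 ± 2.35%, and complex V 5.36 ± 0.395 and 5.26 ± 0.181%. With the chromosome 1 copies added, complex IV made up 25.1 ± 0.786% under LGK-974 and 25.2 ± 2.01% under DMSO. All 4 had an exact permutation p of 0.5 or more, as deposited and with the copies added.

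mt-Nd6 was set against the other 9 genes because it is read from the opposite strand. As deposited, it had 3.90, 3.71 and 4.27% of their counts under LGK-974 and 3.83, 3.76 and 3.84% under DMSO. LGK-974 replicate 3, where the sum of the genes was lowest, had the highest value. With the chromosome 1 copies added, the values were 3.90, 3.71 and 4.13% under LGK-974 and 3.83, 3.76 and 3.70% under DMSO. LGK-974 replicate 3 stayed highest, while DMSO replicate 3 went from the highest of its group to the lowest of all libraries. As deposited, the log2 ratio differed by 0.05 between the group means (−4.66 ± 0.102 and −4.71 ± 0.0165, SD, n = 3 each), with an exact permutation p of 0.5. With the copies added it also differed by 0.05, with an exact permutation p of 0.3.

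Counts of different genes were compared per length, as CPM without TMM scaling divided by the length of the gene in kb. How well the capture kit took up each gene was not measured, so the order is one of counts and not of molecules. mt-Cytb was highest in all 6 libraries, at 53860 ± 12531 under LGK-974 and 57234 ± 5793 under DMSO. mt-Co1 and mt-Nd2 came next and did not differ beyond their spread, since mt-Co1 was above mt-Nd2 in 3 of the 6 libraries. mt-Nd2 lay above mt-Nd4 in all 6 libraries, by 0.24 ± 0.0305 on the log2 scale.

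mt-Nd4, mt-Nd1 and mt-Nd5 followed without an order that held between neighbours, as mt-Nd4 exceeded mt-Nd1 in 4 libraries and mt-Nd1 exceeded mt-Nd5 in 3. mt-Atp6 lay below mt-Nd5 in 5 of the 6 libraries. With copies added, mt-Co2 came next, below mt-Atp6 in 4 libraries, then mt-Nd6, and last mt-Co3, which lay below mt-Nd6 in all 6 libraries by 0.63 ± 0.334 on the log2 scale. As deposited, mt-Co3 stood at 20005 ± 9824 on this scale under LGK-974 and at 18190 ± 3900.1 under DMSO.

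The order depends on the length used. Per kb of the whole gene, mt-Nd5 lay above mt-Nd6 in all 6 libraries, while in the TPM values of the authors, which use a length shortened by the fragment size, mt-Nd5 lay above mt-Nd6 in 0 of 6.

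**Figure D4:**
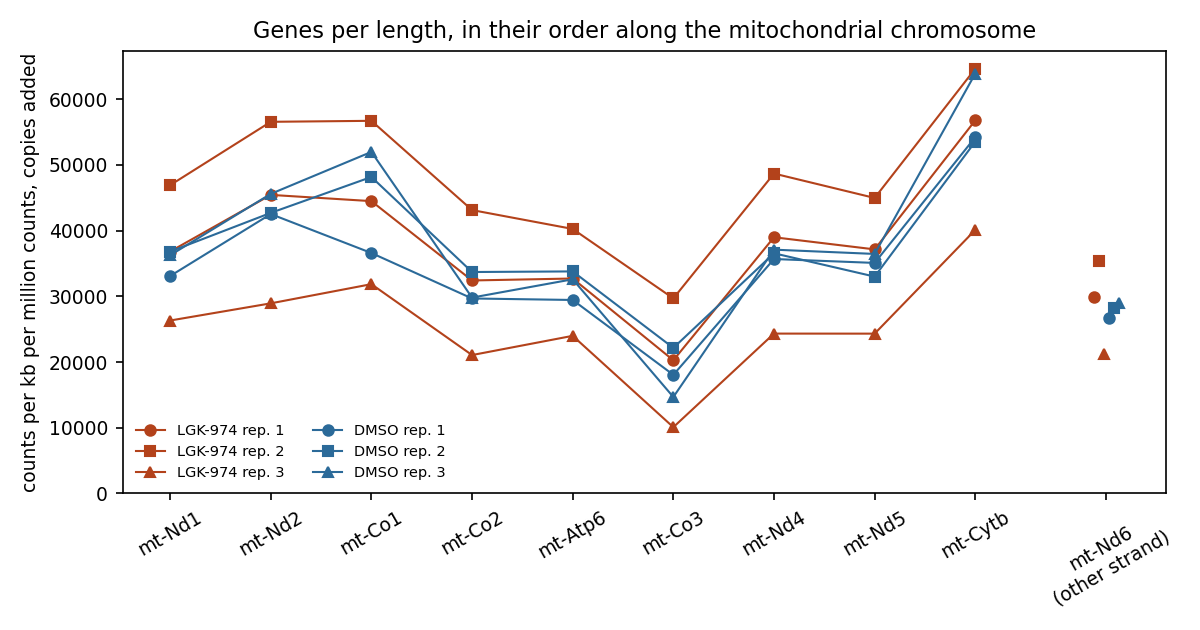
CPM without TMM scaling per kb of gene (copies on chromosome 1 added) for each library, with plus-strand genes in their order along the chromosome and mt-Nd6 of the other strand at the right. The 6 lines have like shapes apart from 2 pairs of neighbours. mt-Co1 lies below mt-Nd2 in some libraries and above it in others. mt-Co2 lies above mt-Atp6 in LGK-974 replicate 2 and DMSO replicate 1 and below it in the others. mt-Cytb is the highest gene in every library and mt-Co3 the lowest.

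The nuclear genes for subunits of the same complexes were read from the same fit. Of 82 listed, 81 were tested and 0 passed the adjusted threshold in edgeR or DESeq2. Their log2 fold changes were negative in 78 and positive in 3, with a median of −0.33 (−0.13 over all tested genes). Every LGK-974 library lay below every DMSO library in 3 of them and above in 1, beside 7.27 and 10.7% of all tested genes. The signs rested on libraries too: without DMSO replicate 3, 63 were negative and 18 positive, with a median of −0.10.

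In complex I, 36 of 36 nuclear subunits had a negative log2 fold change, with a median of −0.32. The smallest unadjusted p belonged to Ndufs6, an accessory subunit, with 38.6, 62.6 and 43.1 CPM under LGK-974 and 63.1, 65.5 and 72.6 CPM under DMSO. The groups did not overlap, at −0.48 on the log2 scale (SE 0.209, adjusted p = 0.368, edgeR). Ndufa11 followed at −0.45 (adjusted p = 0.370, edgeR) with overlapping groups. Without DMSO replicate 3, 26 of the 36 were negative and 10 positive, with a median of −0.10.

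Complex II, which feeds electrons from succinate and has no mitochondrially encoded part, had 4 of 4 subunits with a negative log2 fold change. Sdhc, one of its membrane anchors, had 44.4, 59.5 and 44.0 CPM under LGK-974 and 60.9, 63.1 and 72.9 CPM under DMSO, a log2 fold change of −0.41 (adjusted p = 0.368, edgeR). Sdha, the flavoprotein that oxidises succinate, stood at −0.48 (adjusted p = 0.420, edgeR) with overlapping groups.

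In complex III, 9 of 9 were negative (8 of 9 without DMSO replicate 3), led by Uqcrh at −0.40 and Uqcrq at −0.40 (adjusted p = 0.368 and 0.391, edgeR). Uqcrh, the hinge protein, had 45.8, 61.4 and 49.3 CPM under LGK-974 and 62.4, 66.8 and 77.9 CPM under DMSO, without overlap.

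Complex IV had 12 of 14 negative. Its smallest p was in the other direction, in Cox6a1, the subunit 6A form of tissues other than striated muscle, with 61.4, 67.0 and 70.4 CPM under LGK-974 and 40.1, 56.7 and 50.01 CPM under DMSO. The groups did not overlap, at 0.44 on the log2 scale (SE 0.175, adjusted p = 0.368, edgeR). Cox8b, a form of heart and skeletal muscle, was at −0.59 (adjusted p = 0.368, edgeR), with 83.4, 132.0 and 75.9 CPM under LGK-974 and 125.0, 141.5 and 170.7 CPM under DMSO. LGK-974 replicate 2 lay within the DMSO range for Cox8b.

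Complex V had 17 of 18 tested genes negative, with Usmg5 at −0.46 and Atp5a1, the alpha subunit of the catalytic head, at −0.49 (adjusted p = 0.370 and 0.392, edgeR), both with overlap. Without DMSO replicate 3, 13 were negative and 5 positive.

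The ratio between the mitochondrially and the nuclear encoded parts varied over libraries without following treatment. The 10 genes had 46.6, 52.1 and 25.6 counts for each count on the nuclear list under LGK-974 and 44.8, 34.8 and 28.9 under DMSO. In both groups replicate 3 had the lowest ratio. Per length, as the median TPM of the genes of a complex over that of its nuclear genes, the ratio for complex I was 498, 585 and 288 under LGK-974 and 463, 404 and 342 under DMSO.

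For complex V the TPM ratio was 191, 205 and 110 under LGK-974 and 198, 148 and 118 under DMSO. The groups overlapped in each of these ratios. These ratios compare libraries and are not ratios of molecules.

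Among nuclear genes that transcribe and copy mitochondrial DNA, 0 of 15 passed the adjusted threshold, with 6 positive and 9 negative log2 fold changes and a median of −0.03. The 2 with the smallest p were the related methyltransferase-fold proteins Tfb2m, which opens the promoter for the mitochondrial RNA polymerase, and Tfb1m, which modifies mitochondrial ribosomal RNA. Tfb2m had 23.2, 23.7 and 19.2 CPM under LGK-974 and 29.9, 29.7 and 37.6 CPM under DMSO, which is −0.56 on the log2 scale (SE 0.164, unadjusted p = 0.010, adjusted p = 0.368, edgeR).

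Tfb1m had 7.44, 6.27 and 6.58 CPM under LGK-974 and 16.4, 10.1 and 8.13 CPM under DMSO, a log2 fold change of −0.77 (adjusted p = 0.368, edgeR). For both genes all LGK-974 libraries lay below all DMSO libraries, which held for 7.27% of all tested genes. The list as a whole held 0.0350 to 0.0354% of the counts outside the mitochondrial genes under LGK-974 and 0.0356 to 0.0391% under DMSO.

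Among genes of mitochondrial RNA processing and stability, 0 of 16 passed, with 5 positive and 11 negative and a median of −0.04. Fastkd3, of a family that acts on mitochondrial messages, had 2.32, 3.75 and 3.51 CPM under LGK-974 and 1.68, 2.01 and 2.21 CPM under DMSO (log2 fold change 0.70, adjusted p = 0.377, edgeR). Pnpt1, the mitochondrial polynucleotide phosphorylase, stood at 0.25 (adjusted p = 0.462, edgeR) with overlapping groups.

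Of the 6 nuclear regulators of mitochondrial biogenesis, 0 passed, with a median log2 fold change of 0.10 that was −0.0085 without DMSO replicate 1. Ppargc1a, the coactivator PGC-1α, had 56.6, 99.99 and 42.5 CPM under LGK-974 and 98.1, 95.9 and 148.5 CPM under DMSO. The groups overlapped, at −0.78 on the log2 scale (SE 0.336, adjusted p = 0.368, edgeR). Its relative Pprc1 had 27.8, 24.2 and 32.6 CPM under LGK-974 and 17.8, 21.9 and 21.7 CPM under DMSO, a log2 fold change of 0.46 (adjusted p = 0.368, edgeR) without overlap. Under LGK-974, Ppargc1a had the order of the 10 mitochondrially encoded genes, with replicate 2 highest and replicate 3 lowest, but DMSO replicate 3 was the highest of the 6. Pprc1 had the opposite order under LGK-974, with replicate 2 lowest and replicate 3 highest.

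Markers of cell types were read beside these values. The cardiomyocyte markers held 8.75, 11.4 and 8.71% of the counts outside the mitochondrial genes under LGK-974 and 7.09, 11.1 and 12.3% under DMSO, and 13 of 15 had a negative log2 fold change. The nuclear respiratory chain list took the same order within the DMSO group, at 1.38, 2.0 and 2.46% in replicates 1, 2 and 3, and held 1.56, 2.12 and 1.46% under LGK-974. LGK-974 replicate 2 was highest of its group on both lists, as it was for the 10 genes. Without DMSO replicate 3, 11 of the 15 cardiomyocyte markers had a negative log2 fold change and 4 a positive one. Their median was then −0.17, against −0.42 with all libraries.

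The leukocyte markers held 0.154, 0.133 and 0.191% under LGK-974 and 0.0531, 0.0864 and 0.0746% under DMSO. In 17 of 18 of them every LGK-974 library lay above every DMSO library, beside 10.7% of all tested genes, and LGK-974 replicate 3, lowest in the 10 genes, was highest. 0 of the 18 passed the adjusted threshold in edgeR. In DESeq2 14 did, beside 2.3% of all genes to which it gave an adjusted p. In edgeR with no filter on low counts, where 1206 of 34257 genes passed, 14 of the 18 did. By rule, Cybb, an NADPH oxidase subunit of phagocytes, and Lyz2, lysozyme, are named, with log2 fold changes of 0.96 and 1.30 (both adjusted p = 0.368, edgeR).

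Fibroblast markers held 0.745, 0.634 and 1.18% of the counts outside the mitochondrial genes under LGK-974 and 0.242, 0.450 and 0.445% under DMSO, and LGK-974 replicate 3 was again highest. In 5 of these 12 genes every LGK-974 library lay above every DMSO library, beside 10.7% of all tested genes. 0 of the 12 passed the adjusted threshold in edgeR. In DESeq2 4 did, beside 2.3% of all genes to which it gave an adjusted p. In edgeR with no filter on low counts 1 did, beside 1206 of 34257 genes. Of the named pair, Postn, periostin, had a log2 fold change of 1.56 and Col3a1, a collagen, of 1.14 (both adjusted p = 0.368, edgeR). The part of leukocytes and fibroblasts in the low share of the 10 genes in LGK-974 replicate 3 was not tested.

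The rule named the natriuretic peptide Nppa, at a log2 fold change of 1.04, and cardiac actin Actc1, at 0.86 (both adjusted p = 0.368, edgeR). Nppa and Actc1 are the 2 of the 15 cardiomyocyte markers that were positive. DESeq2 called both, beside 2.3% of all genes to which it gave an adjusted p. Endothelial markers (6 of 10 positive, and 4 of 10 without DMSO replicate 1) held 0.0860 to 0.149% of these counts over the 6 libraries. Among them Vwf was at −0.37 and Kdr at 0.27 (adjusted p = 0.387 and 0.498, edgeR). Red cell markers (3 of 7 positive, and 0 of 7 without DMSO replicate 1) held 0.00193 to 0.00315%, and Slc4a1 among them was under 1.5 CPM in every library.

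**Figure D5:**
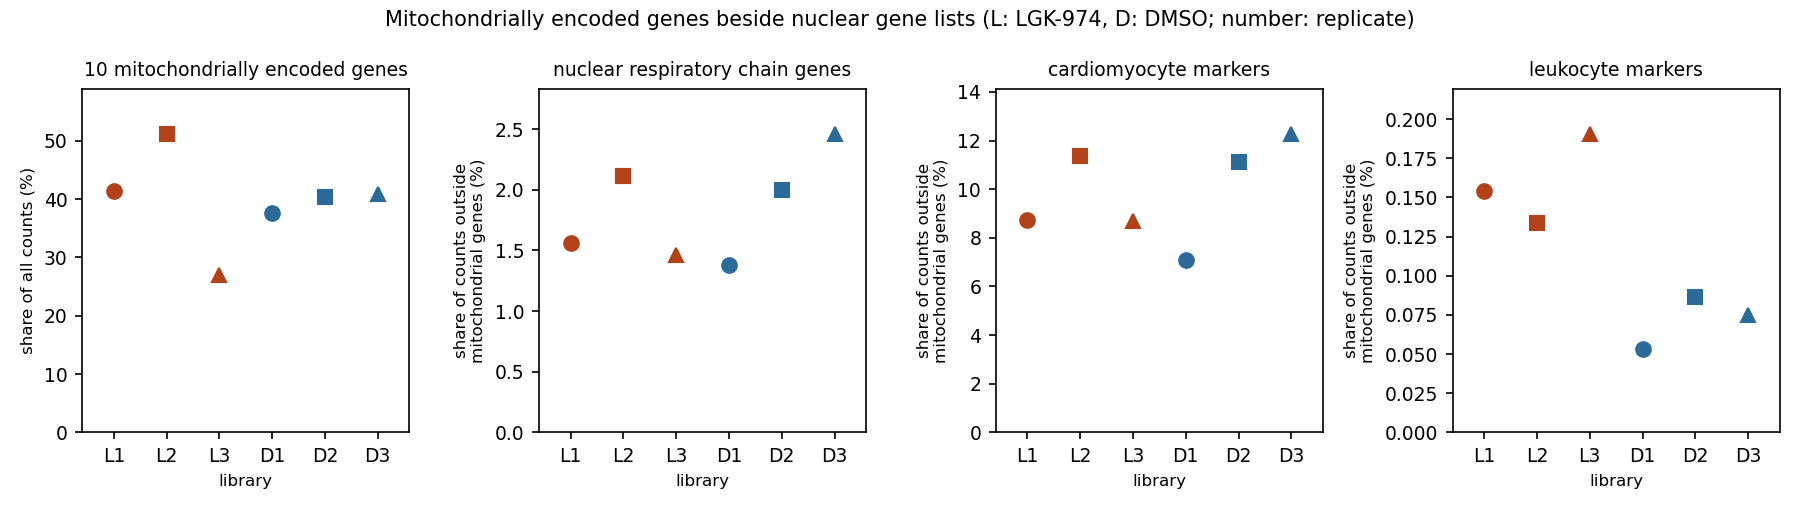
From left to right, the share (%) of all counts on the 10 mitochondrially encoded genes, and the shares (%) of the counts outside the mitochondrial genes on the nuclear respiratory chain list, the cardiomyocyte markers and the leukocyte markers, for each library (L, LGK-974; D, DMSO; the number is the replicate). L2 is highest and L3 lowest in the first panel, while in the last panel all L points lie above all D points.

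The nuclear genes whose level followed the sum of the 10 most closely were sought among 8110 tested genes with a mean of at least 10 CPM. The measure was Pearson's r of log2 CPM over the 6 libraries, which share 1 scaling factor per library, and it is given as a description. The 5 highest were Gabarapl2 (r = 0.984), Ankra2 (r = 0.980), Lyve1 (r = 0.974), Masp1 (r = 0.958) and Slf1 (r = 0.951). None of these was on the respiratory chain, machinery or marker lists.

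Lyve1, a hyaluronan receptor of lymphatic vessels and some tissue macrophages, had 19.8, 29.9 and 8.14 CPM under LGK-974 and 21.8, 23.9 and 19.6 CPM under DMSO. Masp1, a protease of the complement lectin pathway, had 43.9, 52.9 and 17.2 CPM under LGK-974 and 40.9, 41.3 and 43.4 CPM under DMSO. Both were chosen for their likeness to the 10 genes. Their pattern, with LGK-974 replicate 2 highest, replicate 3 lowest and the DMSO libraries close together, follows from that choice. Gabarapl2, of the Atg8 family of autophagy proteins, had 26.1, 29.4 and 18.3 CPM under LGK-974 and 26.0, 25.2 and 25.7 CPM under DMSO.

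On the same measure, 80 of the nuclear respiratory chain genes had a median r of 0.60 with the sum of the 10 genes, ranging from −0.33 to 0.85, and the 15 cardiomyocyte markers had a median of 0.61. The 13 leukocyte markers above 10 CPM had a median of −0.47. Over all 8110 genes the median was −0.10.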

How the data were processed

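Infarct RNA of 3 LGK-974 and 3 DMSO mice was analysed, grouped by the sample labels. The authors quantified transcripts with Kallisto on an Ensembl index of GRCm38 and deposited, per library, estimated counts and TPM for 118489 transcripts. The version, trimming and strand setting were not given in the sources used here. In estimated counts, reads that match several transcripts are divided between them. 98.6% of transcripts were joined to genes with the GENCODE annotation of GRCm38, and their estimated counts were added up within each gene and rounded for the tests. The deposited TPM served for levels per length and as alternatives.

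Genes reaching 10 counts in 3 or more samples were tested with the quasi-likelihood method of edgeR (version 4.0.16 in R 4.3.3), with TMM scaling, treatment as the one factor and Benjamini-Hochberg adjustment. DESeq2 1.42.0 was an alternative. It was run with its defaults on the same genes. Shares were compared with exact two-sided permutation tests over the 6 mice. TMM factors ran from 0.816 to 1.40. Intervals are 95% intervals from the fit's t distribution. Depth was 41579787 to 80398211 counts, so the number of mice limited precision.

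Nuclear copies were found with BLAST+ 2.17.0 (at least 85% identity over at least 50 bases), and those of at least 99% identity were added to their gene as an alternative. The edgeR and DESeq2 fits were tried on simulated counts with known changes. The permutation test was tried on small sets of made-up values for which p is known. Python 3.11.15, pandas 2.3.3, SciPy 1.17.1 and matplotlib 3.10.9 made the tables and plots.

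The genes and lists were chosen with earlier results of these data known. Named genes were the 10 members, the other mitochondrial protein genes, the 2 with the smallest p of each nuclear list, and the 5 genes off the mitochondrial chromosome with a mean of at least 10 CPM whose level correlated best with the members' sum. The nuclear copies were named after their values were seen. 1 gene that the rule names is not reported here.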

Additional observations from a re-analysis of the deposited data

How the results depend on the processing

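0 of the 10 genes and 0 of the nuclear respiratory chain genes had an adjusted p under 0.05 in any of the 14 fits, which used edgeR, or DESeq2 in 1 of them. Over all genes, the count of 0 became 337 with DESeq2 and 1206 with no filter on low counts, and 0 to 2 when each library was left out in turn. The direction of the 10 genes was not stable. With no filter, the median log2 fold change went from −0.06 to 0.10, and mt-Co1 (0.0215), mt-Atp6 (0.0838), mt-Nd1 (0.13), mt-Nd2 (0.0835), mt-Nd4 (0.12), mt-Nd5 (0.10) and mt-Nd6 (0.11) turned positive; the median of all genes tested there was −0.55. With the chromosome 1 copies added, mt-Co2 turned to −0.0214. On the TPM scale the difference in the share of complex IV turned to 0.0758 percentage points, and that in the 10 genes' share of the total went from 0.238 to 3.12.

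With each library left out in turn, the median of the 10 ran from −0.45 to 0.32. Single genes ran from −0.51 to 0.25 (mt-Co1), −0.42 to 0.73 (mt-Co2), −0.48 to 0.56 (mt-Co3), −0.50 to 0.17 (mt-Cytb), −0.44 to 0.29 (mt-Atp6), −0.43 to 0.34 (mt-Nd1), −0.48 to 0.32 (mt-Nd2), −0.45 to 0.36 (mt-Nd4), −0.44 to 0.33 (mt-Nd5) and −0.39 to 0.31 (mt-Nd6). For each of the 10 the lowest value was without LGK-974 replicate 2 and the highest without LGK-974 replicate 3. The difference in the share of all counts ran from −5.46 to 6.69 percentage points. Differences in shares of mitochondrial counts, in percentage points, ran from −1.68 to 0.531 (mt-Co1), −1.10 to 1.27 (mt-Co2), −0.259 to 0.552 (mt-Co3), −1.43 to −0.127 (mt-Cytb and complex III), −0.127 to 0.224 (mt-Atp6 and complex V), 0.0720 to 0.481 (mt-Nd1), −0.326 to 0.0437 (mt-Nd2), 0.0216 to 0.322 (mt-Nd4), −0.367 to 0.652 (mt-Nd5), −0.0105 to 0.241 (mt-Nd6), −0.164 to 1.41 (complex I) and −0.937 to 1.27 (complex IV). The log2 ratio of mt-Nd6 to the other 9 ran from −0.00145 to 0.0991. The cause was not tested for any of these.

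With the replicate number as a replicate block, 0 genes passed, all 10 log2 fold changes were negative with a median of −0.21, and mt-Co2 (−0.0818) and mt-Co3 (−0.17) changed sign. For the shares, the block was a sign-flip test of the differences within numbers, where 3 pairs allow no p under 0.25. It could thus not have called a difference. In shares of mitochondrial counts, mt-Co3, mt-Cytb, mt-Nd1 and complex III reached 0.25 in this sign-flip test, and the other shares had a higher p. Correlations of the deviations of libraries with the same number were 0.475, −0.0482 and 0.391, LGK-974 replicate 2 correlated best with DMSO replicate 3, and the numbers mark different mice. DESeq2's size factors in edgeR, scaling by nuclear genes alone, counts scaled from TPM, the joined counts or the 10 genes alone as denominator changed no direction or call among the results on the 10 genes. Some list summaries moved: with counts scaled from TPM the median of the biogenesis regulators went from 0.10 to −0.0137 and that of the red cell markers from −0.0708 to 0.0261, and 10 of 12 fibroblast markers were positive. With DESeq2's size factors or nuclear scaling, 7 of 15 genes of mitochondrial transcription and replication were positive, against 6.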
